A study of Mus musculus with 2 samples.

Results

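The TCF1 intervals around 5 genes of the Wnt pathway are described here: Ctnnb1, Axin2, Nkd1, Myc and Ccnd1. The members were the listed intervals that overlapped 1 fixed window per gene by at least 1 bp, 74 of the 104683 intervals in the whole list. The windows lay in the mm9 mouse genome at chr9:120790000-120920000 (Ctnnb1), chr11:108730000-108860000 (Axin2), chr8:91000000-91170000 (Nkd1), chr15:61720000-61920000 (Myc) and chr7:152060000-152180000 (Ccnd1). The list came from 1 chromatin immunoprecipitation library made with an antibody against TCF1 (SantaCruz sc-13025). The cells were γδ thymocytes, sorted as gd+, CD24+ and CFPlo/-, of C57BL/6 mice with the genotype TCRbeta KO, Sox13tg+ and Sox13 ECFP KI/+. An input library with no antibody came from mice of the same genotype and was not analysed here. Both libraries thus share the TCRβ deletion, the Sox13 transgene and the reporter allele, and no library without them was compared. The sources used here do not give the promoter that drives the transgene, the number of animals or the read depth. There was a single ChIP library, so values have no replicate error and conditions were not compared.

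TCF1 is the product of Tcf7, needed early in the T cell lineage, and its HMG box binds DNA at sites with the core CTTTG. In canonical Wnt signalling, β-catenin escapes destruction, enters the nucleus and joins TCF/LEF factors on their target genes; without it these factors can hold the same genes down with corepressors. Ctnnb1 encodes β-catenin itself. Axin2, a scaffold of the complex that destroys β-catenin, and Nkd1, an inhibitor that acts on Dishevelled, are induced by the pathway and restrain it. Myc and Ccnd1, which encode a growth-promoting transcription factor and cyclin D1 of the cell cycle, are widely cited targets in other tissues. SOX13, the product of the transgene, is an HMG-box factor of developing γδ T cells that can bind TCF1.

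RefSeq promoter windows (GRCm38.p6, 250 bases before to 50 after a start) were at hand for 3 of the 5 genes, with 1 window each for Axin2 and Nkd1 and 2 overlapping windows for Ctnnb1. The 250 upstream bases are shown 5′ to 3′ with CG pairs in capitals, because CG content is where the 3 differ. They lie on the plus strand at chr11:108920099-108920348 (Axin2), chr9:120933150-120933399 (Ctnnb1) and chr8:88527383-88527632 (Nkd1) in GRCm38.p6. These positions cannot be set against the mm9 positions of the intervals.

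Axin2: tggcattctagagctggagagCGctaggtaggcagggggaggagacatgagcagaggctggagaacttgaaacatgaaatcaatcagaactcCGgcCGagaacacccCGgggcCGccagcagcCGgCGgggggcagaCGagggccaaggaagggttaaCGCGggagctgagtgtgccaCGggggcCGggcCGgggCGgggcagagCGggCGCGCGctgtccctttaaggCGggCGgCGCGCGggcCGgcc

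Ctnnb1: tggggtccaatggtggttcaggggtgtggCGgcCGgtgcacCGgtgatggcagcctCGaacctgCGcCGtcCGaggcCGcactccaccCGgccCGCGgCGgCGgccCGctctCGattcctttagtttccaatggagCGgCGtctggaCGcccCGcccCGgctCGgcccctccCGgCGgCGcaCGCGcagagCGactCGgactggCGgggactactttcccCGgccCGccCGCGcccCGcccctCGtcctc

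Nkd1: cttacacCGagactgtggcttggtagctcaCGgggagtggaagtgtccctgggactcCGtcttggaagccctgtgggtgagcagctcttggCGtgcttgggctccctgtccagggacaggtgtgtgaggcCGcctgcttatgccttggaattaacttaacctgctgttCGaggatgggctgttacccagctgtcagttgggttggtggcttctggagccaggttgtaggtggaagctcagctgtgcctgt

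The Axin2 and Ctnnb1 stretches held 24 and 35 CG pairs, more than 88.0% and 97.0% of 32851 promoter windows in the same table. The Nkd1 stretch held 6, equal to the median of all windows. The TCF motif, taken as CTTTG followed by AA, AT, TA or TT and searched on both strands, had 0 matches in the 4 windows of the 3 genes, and the core CTTTG, which every such motif contains, also had 0. Of all promoter windows, 16.9% held a 7-base match and 53.9% held the core. In 26 windows of 15 other pathway genes (of 20 listed; several windows of 1 gene overlap), 7 (26.9%) held a 7-base match and 17 (65.4%) held the core. The windows of Sp5 and Dkk1, a transcription factor and a secreted inhibitor of the pathway, held 2 matches of 7 bases each. A match describes letters and not a bound site, and without mm9 sequence the letters under the intervals were not read.

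TCF1 intervals were frequent around 4 of the 5 genes. The Ccnd1 window held 18 intervals in 120 kb, the Axin2 window 17 in 130 kb, the Nkd1 window 16 in 170 kb, the Ctnnb1 window 14 in 130 kb and the Myc window 9 in 200 kb. Per Mb this was 150 at Ccnd1 (95% exact Poisson interval 88.9 to 237), 131 at Axin2 (76.2 to 209), 108 at Ctnnb1 (58.9 to 181), 94.1 at Nkd1 (53.8 to 153) and 45.0 at Myc (20.6 to 85.4). Neighbours in this order had overlapping intervals, and of all pairs Myc and Ccnd1 alone did not overlap. These limits cover counting error only and treat intervals as independent. Stretches of chromosome 7 of the Ccnd1 window's size held 0 to 54 intervals around a median of 3, a wider scatter than independent counts have. The limits are thus likely too narrow, and the difference between Myc and Ccnd1 was not tested. Ccnd1 had 3.09 times the mean density of its own chromosome, Ctnnb1 2.49 times, Axin2 2.06 times, Nkd1 2.03 times and Myc 0.953 times.

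Each window was ranked among non-overlapping tiles of the same size on its chromosome, as a percentile with ties counted by their middle. The Ctnnb1 count stood at the 92.4th percentile of 928 tiles and the Ccnd1 count at the 92.1st of 1243. The Nkd1 count stood at the 86.8th percentile of 755 tiles and the Axin2 count at the 85.8th of 911. The Myc count stood at the 69.4th percentile of 500 tiles. None of the windows was extreme: 65 tiles of chromosome 9 held more intervals than Ctnnb1, and 93 of chromosome 7 held more than Ccnd1. The fullest tile held 47 on chromosome 9 and 54 on chromosome 7. The windows were chosen around genes and the tiles were not, and the part of gene content in these ranks was not tested.

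**Figure D1:**
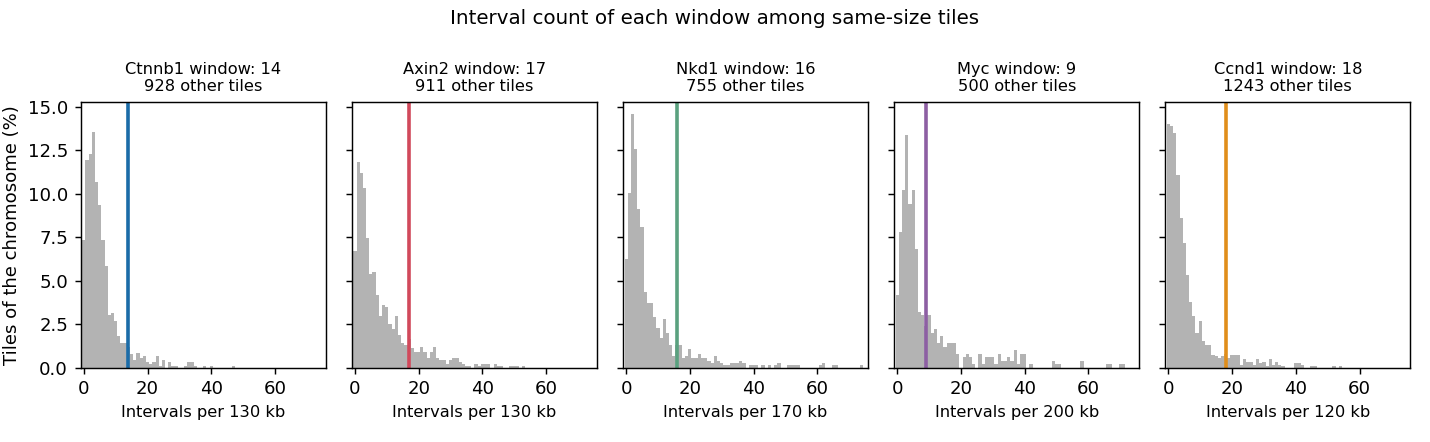
Share of tiles of each chromosome (%, grey bars) by their number of TCF1 intervals, in tiles the size of each locus window; the coloured line marks the window itself. The 4 windows other than Myc lie in the right tail at 14 to 18 intervals, where tile medians were 3 to 5, and Myc lies at 9 against a median of 5.

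The surroundings of the windows differed. In the 500 kb on each side of the Axin2 window the density was 36.0 intervals per Mb, so the window was 3.63 times denser, and only 5 of those 36 intervals lay on the lower-coordinate side. The Myc window had 12 intervals in its flanks and was 3.75 times denser than they were. The Ccnd1 window lies near the end of chromosome 7, so its higher-coordinate flank, with 31 intervals, was shorter than 500 kb. No density over both flanks is therefore given for Ccnd1. Its lower-coordinate flank held 72 per Mb, against 150 in the window. At Nkd1 the flanks held 66 per Mb (ratio 1.43). The Ctnnb1 window was close to its flanks, with 110 per Mb there (ratio 0.979), of which 74 intervals lay on the higher-coordinate side. So Myc, the locus with the lowest rank on its chromosome, stood above its flanks by about as much as Axin2. The median height of the 12 flanking intervals of Myc was 19, against 32.5 inside. In the other 4 loci the window median lay below that of the flanks, with gaps from 35.9 against 36.8 at Ccnd1 to 33.8 against 39.3 at Nkd1.

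Most intervals at the 5 loci were of ordinary height. Height is the deposited score per 50 bp of an interval's width, and what the score counts is not stated in the sources used here. The median over the 74 intervals was 33.8, with quartiles at 27.5 and 45.2 and a range of 5.88 to 77.0. The median of the 5 chromosomes outside the windows was 36.2, and that of the whole list was 34. By locus the medians were close: 35.9 at both Axin2 and Ccnd1, 33.8 at Nkd1, 32.9 at Ctnnb1 and 32.5 at Myc. Among tiles with at least 3 intervals they stood between the 46.3rd percentile (Ctnnb1) and the 57.3rd (Myc). Above the median of their chromosome lay 30 of the 74 intervals (40.5%).

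In the upper quartile of height of their chromosome lay 4 of 18 intervals at Ccnd1 (background outside the window 25.0%), 4 of 16 at Nkd1 (25.0%), 2 of 17 at Axin2 (25.0%), 2 of 14 at Ctnnb1 (25.0%) and 1 of 9 at Myc (25.1%). The total of 13 of 74 (17.6%) was below that background, and the shares at Ccnd1 (22.2%) and Nkd1 (25.0%) were near it. So the 4 loci with more intervals than their chromosome's mean density held no larger share of high ones than the background.

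**Figure D2:**
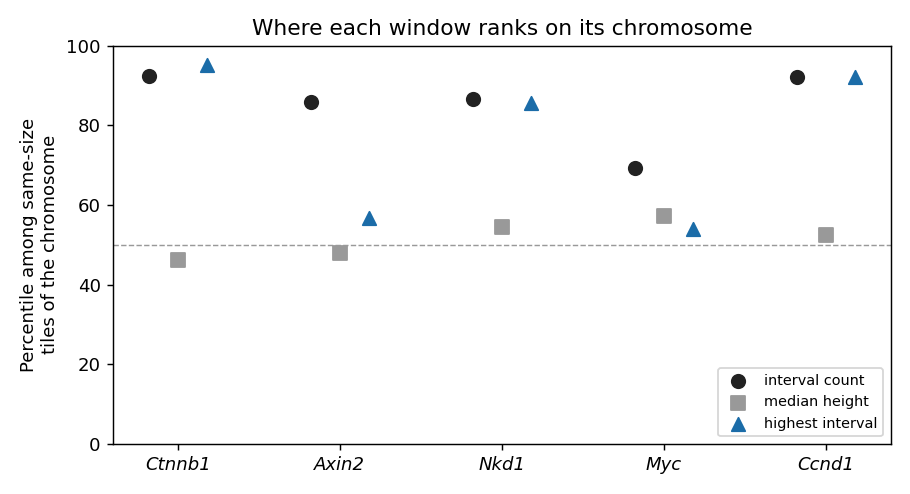
Percentile of each locus window among same-size tiles of its chromosome, for the interval count (circles), the median height (squares) and the highest interval (triangles). Median heights sit near the dashed line at 50 for all 5 loci, while counts reach 92.4 and the highest interval reaches 95.2 at Ctnnb1.

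Ctnnb1, Ccnd1 and Nkd1 each held an interval of over 70 in height, and Axin2 and Myc did not. The highest of each window was compared with the highest of every tile that held an interval. Ctnnb1 ranked at the 95.2nd percentile (860 tiles), Ccnd1 at the 92.2nd (1069), Nkd1 at the 85.6th (708), Axin2 at the 56.8th (850) and Myc at the 54.1st (479). A window with more intervals has more chances of a high one, so this rank is not independent of the count. With intervals at most 1 kb apart joined, the rank of Ccnd1 was 62.6 and that of Ctnnb1 97.0, since joining counts the gap between neighbours as width. No interval in the 5 windows passed the 99th percentile of height in the whole list, 77.9.

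At Ctnnb1, which encodes the coactivator that TCF factors recruit, 1 interval outweighed the others. It lay at chr9:120891101-120891650, 550 bp wide, with a score of 847.5 and a height of 77.0. That score was 36.0% of the summed score of the window, near the 36.1% that the largest score at Myc held there. Its height was above 99.1% of the intervals of chromosome 9 and stood at the 95.5th percentile of the 77 intervals of its own width there. The next highest was chr9:120874151-120874450, 300 bp wide, with a score of 293 and a height of 48.8, and the third was chr9:120918201-120918350, 150 bp wide, with a score of 141 and a height of 46.9. The other 11 heights ran from 17.4 to 38.8. Intervals were narrow here, with a median width of 150 bp. A group of 3 within 1.30 kb, at chr9:120842201-120843500, had low heights of 17.4 to 31.9, while a group of 3 at chr9:120872351-120874450 had 37.5 to 48.8.

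At Axin2, the feedback scaffold, the widest and the highest interval were different ones. The interval chr11:108782251-108783500 was 1250 bp wide, the widest of the 74, and its score of 1109 was the largest of the 74. Its height was only 44.4, and it was the lowest of the 5 intervals of that width on chromosome 11. It held 29.1% of the summed score of the window. The 3 highest intervals were chr11:108792801-108793000 (200 bp, score 230.5, height 57.6), chr11:108802901-108803100 (200 bp, score 196, height 49.1) and chr11:108770951-108771150 (200 bp, score 182.2, height 45.6). The first of these stood at the 94.5th percentile of the 1400 intervals of its width on chromosome 11. The lowest were 9.58 and 10.1. A group of 4 intervals with gaps of at most 2 kb, at chr11:108802901-108805200, held 26.3% of the summed score. The last 37.8 kb of the window, from 108822251, held no interval.

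The next interval listed beyond the Axin2 window was of a different order. It lay at chr11:108872851-108873500, 12.9 kb past the window's end, 650 bp wide, with a score of 43385 and a height of 3337. That height was 57.9 times the highest inside the window, and the score was 11.4 times the summed score of all 17 intervals. It was the only one of the 105 highest intervals of the list (height above 132.8) inside, or within 50 kb of, any of the 5 windows. No other interval was listed for 50.6 kb before it or 45.5 kb after it, and those neighbours had heights of 9.58 and 18.4. The input library was not analysed here, so whether chromatin without the antibody is as high at this place was not tested. It is no member, and it entered the Axin2 values only as 1 of the intervals of the flanks, of chromosome 11 and of its tiles.

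At Nkd1, the inhibitor that acts on Dishevelled, 3 intervals were high. The highest was chr8:91150901-91151200 (300 bp, score 428, height 71.3), followed by chr8:91115401-91116000 (600 bp, score 841.5, height 70.1) and chr8:91151301-91151950 (650 bp, score 852, height 65.6), which was also the widest. The first and the third were 100 bp apart, and this pair held 30.6% of the summed score. The highest interval stood at the 97.0th percentile of the 577 intervals of its width on chromosome 8. Heights varied least here, by 2.98 times between the lowest (23.9) and the highest, against 8.86 times at Myc. In the lowest quartile of height of the chromosome, which holds about 25% of its intervals by definition, lay 1 of the 16. The counts were 4 of 17 at Axin2, 4 of 18 at Ccnd1, 3 of 14 at Ctnnb1 and 3 of 9 at Myc.

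At Myc, the growth regulator, most of the score lay in 1 place. A group of 4 of the 9 intervals within 3.85 kb, at chr15:61816001-61819850, held 77.4% of the summed score, and it lay just on the lower-coordinate side of the window's centre. It held the highest interval of the window, chr15:61819351-61819850 (500 bp, score 520.5, height 52.0), which was also the widest, and the second, chr15:61817001-61817400 (400 bp, score 337, height 42.2). The third in height was a lone interval of 100 bp at chr15:61895451-61895550 (score 68.0, height 34.0). The 96.0 kb before the group held no interval, the longest empty stretch in any of the 5 windows. The other 5 intervals lay on the higher-coordinate side, with heights of 5.88 to 34.0, and 2 of them formed a second group at chr15:61883251-61885500 with 7.23% of the summed score. An interval at chr15:61847451-61847650 had the lowest height of the 74, 5.88.

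At Ccnd1, the cyclin D1 locus, intervals were spread over the window, with 2 concentrations. A group of 6 at chr7:152123951-152129450 spanned 5.50 kb and held 38.8% of the summed score. It contained the second highest interval, chr7:152125401-152125700 (300 bp, score 364, height 60.6), and the widest, chr7:152128701-152129450 (750 bp, score 602, height 40.1). The highest interval lay far from this group, at chr7:152082201-152082750 (550 bp, score 832, height 75.6), 400 bp after another of height 47.3. Its height was above 98.6% of the intervals of chromosome 7 and stood at the 94.4th percentile of the 133 of its width. The third highest was chr7:152164601-152165000 (400 bp, score 417.5, height 52.2). Ccnd1 also had the largest median width, 275 bp, and the largest share of its window covered, 4.58% against 1.30% for chromosome 7.

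**Figure D3:**
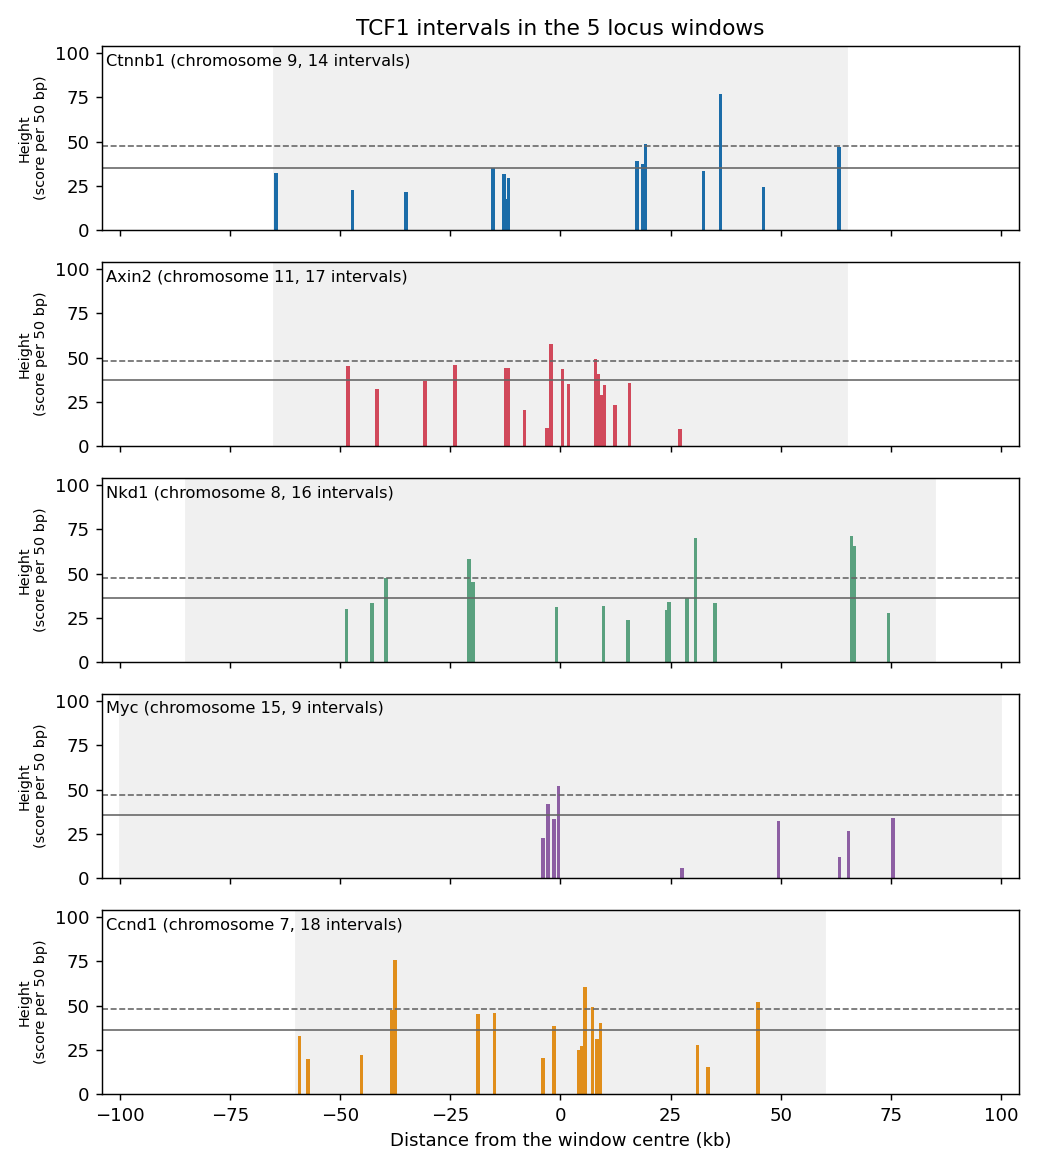
Height of each TCF1 interval (score per 50 bp) by its distance from the centre of the locus window (kb); grey marks the window, the solid line the median height of the chromosome and the dashed line its upper quartile. Bars under 0.8 kb are drawn 0.8 kb wide. Myc shows a group of 4 next to its centre, Ctnnb1 1 high interval of 77.0, and Axin2 no interval in its last 37.8 kb.

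With gaps of at most 2 kb, 38 of the 74 intervals (51.4%) fell into 14 groups of 2 to 6, beside 46.4% of the intervals of the 5 chromosomes outside the windows, a share near that of the loci. The median gap between neighbours was 2.30 kb at Ccnd1, 3.15 kb at Axin2, 5.45 kb at Nkd1, 5.97 kb at Myc and 9.35 kb at Ctnnb1. Groups were not always high: the group of 6 at Ccnd1 ran from 25.1 to 60.6 in height, and the pair at chr11:108791851-108793000 near Axin2 joined heights of 10.1 and 57.6.

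Intervals covered 19750 bp, or 2.63% of the 750 kb in the 5 windows. The share was 4.58% at Ccnd1, 3.92% at Axin2, 2.50% at Nkd1, 2.15% at Ctnnb1 and 1.05% at Myc. The chromosome of Axin2 had 1.66% covered, that of Nkd1 1.21%, that of Ctnnb1 1.13% and that of Myc 1.24%. Myc was the only locus below its chromosome.

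Width and height went together within the loci. The 10 intervals of 500 bp or more had a median height of 49.8, the 14 of 300 to 450 bp 39.0, the 22 of 200 or 250 bp 34.2 and the 28 of 100 or 150 bp 28.6. The same classes on the 5 chromosomes outside the windows had medians of 52.1, 43.8, 35.9 and 29.1, each above that of the loci. Across the 74 intervals Spearman's rho of width and height was 0.56, and outside the windows 0.42; the points share 1 library and the width enters the height. Intervals of 500 bp or more made up 13.5% of the 74 (10 intervals), beside 9.86% outside the windows. They were 3 each at Ccnd1 and Nkd1, 2 at Axin2 and 1 each at Myc and Ctnnb1.

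Ranked only among intervals of their own width on their chromosome, the 74 had a median percentile of 46.9. The locus medians were 62.5 at Ctnnb1, 52.7 at Nkd1, 42.7 at Myc, 42.4 at Ccnd1 and 30.1 at Axin2. Above the 90th percentile lay 5 of the 74 intervals, and below the 10th lay 3, where each tail holds about 10% of all intervals by construction. Ctnnb1, whose intervals were narrow, thus ranked first once width was held equal, and Axin2 ranked last.

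**Figure D4:**
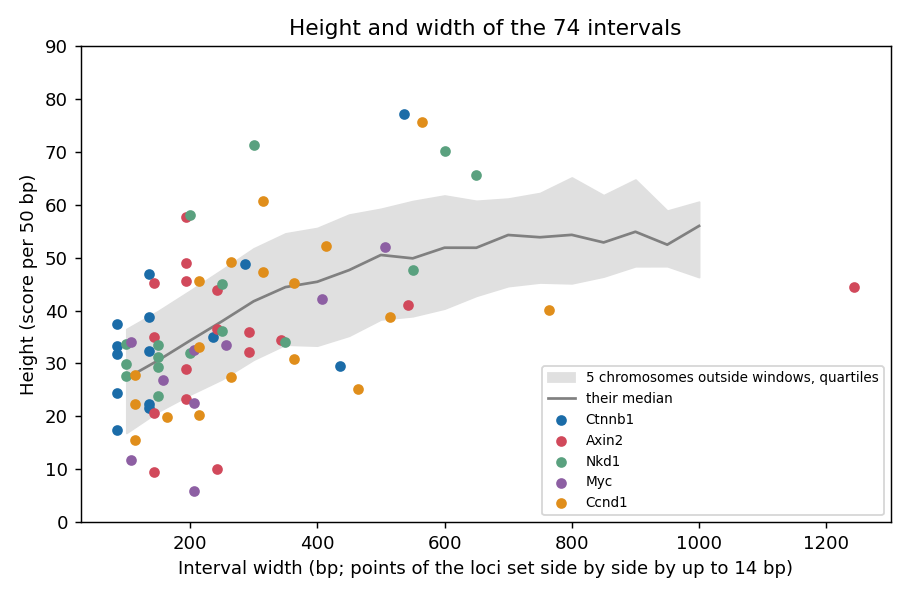
Height (score per 50 bp) against width (bp) for the 74 intervals, coloured by locus, with the median and quartiles of intervals of the same width up to 1000 bp on the 5 chromosomes outside the windows in grey. Most points lie in or near the grey band; points above it include the highest interval of Ctnnb1, Ccnd1, Nkd1 and Axin2, and the 1250 bp interval of Axin2 stands alone at the right.

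The windows are wider than the genes, so an interval in a window is not thereby an interval of that gene. In the GRCm38 gene order, the nearest protein-coding genes are Rpl14 and Ulk4 beside Ctnnb1, Cep112 and Rgs9 beside Axin2, Brd7 and Snx20 beside Nkd1, A1bg and Gsdmc beside Myc, and LTO1 and Tpcn2 beside Ccnd1. Which intervals lie in promoters, exons or introns was not analysed here, for want of an mm9 annotation, and the place of each gene within its window was taken from the choice of windows and not checked.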

How the data were processed

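The deposited list gave 1 score per interval for the TCF1 library, with no header. Per the labels' protocols, chromatin was fixed with 1% formaldehyde, and libraries were amplified for 17 cycles and cut at 300 to 500 bp. The submitters' processing notes name mm9. Aligner, caller, threshold, use of the input and scale of the score: not given in the sources used here; depth is unknown. Ends were read as inclusive, and positions count from 1.

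From these, height was computed as score / width x 50 bp. Tiles of the window's size ran from the first to the last interval of a chromosome, leaving out those that touched the window. Percentiles describe and are no tests. Named intervals are the 3 highest and the 1 widest per locus, and extreme ones within 50 kb; others were named after their values were seen, as were the 2 kb groups, the flanks, the 500 bp limit and the CG counts. Members and lists were chosen with earlier results of these data known. Poisson intervals are at 95%. The counting was tested on simulated data. Tools were matplotlib 3.10.9, scipy 1.17.1, pandas 2.3.3 and numpy 2.4.6 under Python 3.11.15.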

Additional observations from a re-analysis of the deposited data

How the results depend on the processing

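The values over all 5 loci are the total count, the pooled median height, the highest height, the pooled coverage and the median of the 5 percentiles. Of 62 alternative values of this kind, 35 stayed close (within 1.5 times, or inside the 95% interval of the median or of the percentile) and 27 moved. Of 305 such values for single loci, 172 stayed close and 133 moved. Requiring the midpoint to lie in the window, moving the tile grid or using only tiles with an interval moved no value over all loci.

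Keeping the upper 50% by score left 39 intervals, with a median height of 45.2 and 8 of upper-quartile height, and put the median height at the 38.4th percentile and the highest interval at the 81.8th. Keeping the upper 10% left 8, with a median of 58.8, 3 of upper-quartile height and 0.72% covered, and gave percentiles of 75.5 (count), 34.0 (median height) and 66.4 (highest). Such a choice removes low and narrow intervals everywhere by construction. The upper-quartile cutoff was taken anew from the intervals kept on each chromosome, so about 25% of those pass it by construction. At Myc the interval of height 52.0 was kept in both cases but passed neither new cutoff. Joining within 1 kb lowered the percentile of the highest interval to 62.6.

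The central 50% of each window gave percentiles of 93.1, 45.9 and 67.7 for count, median height and highest interval. These central parts held 50 intervals, 8 of them of upper-quartile height, beside a background of about 25% on each chromosome. Windows of double size held 119 intervals, with 23 of upper-quartile height beside the same background, and gave 83.4 for count and 47.8 for median height. Their highest value became 3337, because the Axin2 window then takes in the interval 12.9 kb past its end. In double-size windows the count percentile was 71.8 for Axin2, 60.8 for Myc and 94.9 for Ctnnb1. In the central 50% the highest interval at Ctnnb1 was 48.8, since that of 77.0 lies outside. Against tiles of all 19 autosomes the count stood at 91.6 and the median height at 56.2. With the score in place of height the pooled median was 139, the highest 1109 and the percentile of the median 64.0; by score, the median at Ccnd1 stood at the 86.1st percentile and that at Ctnnb1 at the 20.8th. Except where construction is named, the cause was not tested.

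No paired analysis was possible because the ChIP arm held a single library. Depth and threshold are unknown, so an empty stretch says nothing on the absence of TCF1.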
